A study of Mus musculus with 18 samples.

Results

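The genes described here are 38 genes of mitosis and its checkpoints, taken by gene symbol from a table of 48794 gene rows. They were read in macrophages grown from the marrow of male C57BL/6 mice. Every group shared the same culture: marrow cells matured for 7 days in 50 ng/ml rhM-CSF, which drives macrophage growth, and were then kept for 24 h in 10 ng/ml rhM-CSF. Control cells received nothing more. The IL4_IL13 cells also received rmIL-4 and rmIL-13, each at 10 ng/ml, and the IL4_IL13_TNFa cells received rmIL-4, rmIL-13 and rmTNFα, each at 10 ng/ml. There were 6 libraries per group, with numbers from 1 to 6. The labels state neither the mice's age nor if each library had its own animal or culture. A p-value here is therefore set against library-to-library spread alone, part of which may be technical. All 38 symbols were found and all 38 passed the filter on low counts, which kept 13177 genes.

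Mitosis divides the copied chromosomes between the daughter cells. Cyclin B bound to the kinase Cdk1 drives entry, the kinases Plk1, Aurora A and Aurora B build the spindle and correct its attachments, and the kinetochore joins each centromere to spindle microtubules. While any kinetochore is unattached, the spindle checkpoint holds back Cdc20, the activator of the anaphase-promoting complex; once it is released, that ligase marks cyclin B and securin for destruction, separase cuts cohesin and the cell divides. The transcripts of these genes rise in late S phase, G2 and mitosis and are low in resting cells. Their promoters are known for a CHR element, which binds the MuvB core of the DREAM repressor and of the activators B-Myb and FoxM1, and for CCAAT boxes bound by NF-Y, whereas S phase genes more often carry E2F sites. Macrophages matured in M-CSF go on dividing in culture, and M-CSF sustains that division.

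The promoters of the core regulators show these letters at close range. RefSeq windows of 300 bases on GRCm38.p6, from 250 before to 50 after each annotated start, are printed 5′ to 3′ on the strand of the gene for the B cyclins, Plk1, Cdk1 and Cdc20, since these genes carry the entry and exit steps of mitosis. Capitals mark the CHR letters TTTGAA or TTCGAA, the CCAAT box (ATTGG where it lies on the other strand) and the E2F letters TTTGGCGC or TTTCGCGC, each searched on both strands. The windows lie at chr13:100786437-100786736 (minus strand) for Ccnb1, chr9:70421505-70421804 (minus) for Ccnb2, chr7:122159185-122159484 (plus) for Plk1, chr10:69352863-69353162 (minus) for Cdk1 and chr4:118437294-118437593 (minus) for Cdc20.
Ccnb1: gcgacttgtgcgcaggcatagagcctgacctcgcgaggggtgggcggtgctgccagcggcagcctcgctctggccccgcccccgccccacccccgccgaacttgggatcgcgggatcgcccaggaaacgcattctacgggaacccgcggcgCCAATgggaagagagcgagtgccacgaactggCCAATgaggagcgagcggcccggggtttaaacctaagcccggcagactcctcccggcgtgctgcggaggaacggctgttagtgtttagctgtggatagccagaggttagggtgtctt
Ccnb2: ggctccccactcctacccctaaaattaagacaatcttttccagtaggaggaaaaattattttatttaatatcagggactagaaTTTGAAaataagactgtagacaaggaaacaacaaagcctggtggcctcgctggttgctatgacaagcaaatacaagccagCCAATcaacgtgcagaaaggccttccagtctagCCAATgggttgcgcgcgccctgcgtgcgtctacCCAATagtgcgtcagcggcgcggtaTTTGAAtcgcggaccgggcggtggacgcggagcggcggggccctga
Plk1: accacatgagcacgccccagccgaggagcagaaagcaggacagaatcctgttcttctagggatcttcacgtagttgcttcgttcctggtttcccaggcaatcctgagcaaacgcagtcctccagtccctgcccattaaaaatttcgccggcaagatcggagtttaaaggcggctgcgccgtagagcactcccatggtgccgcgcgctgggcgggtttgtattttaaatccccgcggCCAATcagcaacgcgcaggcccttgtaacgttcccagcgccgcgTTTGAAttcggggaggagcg
Cdk1: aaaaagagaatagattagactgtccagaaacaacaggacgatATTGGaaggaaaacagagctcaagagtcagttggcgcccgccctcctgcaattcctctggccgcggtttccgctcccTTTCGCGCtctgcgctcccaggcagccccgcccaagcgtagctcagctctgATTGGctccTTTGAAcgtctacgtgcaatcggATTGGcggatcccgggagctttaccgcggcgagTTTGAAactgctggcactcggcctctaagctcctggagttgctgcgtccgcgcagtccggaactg
Cdc20: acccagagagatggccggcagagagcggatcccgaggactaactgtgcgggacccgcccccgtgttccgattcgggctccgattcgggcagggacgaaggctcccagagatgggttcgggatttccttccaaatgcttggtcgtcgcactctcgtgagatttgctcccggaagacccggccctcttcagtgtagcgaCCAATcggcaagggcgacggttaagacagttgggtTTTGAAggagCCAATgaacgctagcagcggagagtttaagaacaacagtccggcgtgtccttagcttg
In Ccnb2 a CHR match began 4 bases after the start, behind 3 CCAAT boxes that began at -87, -54 and -21. The Plk1 window held 1 CCAAT box at -14 and 1 CHR match at 30. In Cdk1, CHR matches began at -71 and -15, beside CCAAT boxes on the other strand and an E2F match at -131. The Cdc20 window placed a CHR match at -18 between CCAAT boxes at -53 and -8. Ccnb1 held CCAAT boxes at -99 and -67 and neither of the CHR spellings searched. These positions count from the start in the first-listed RefSeq window of each gene. The gene coordinates given below come from another annotation and can begin elsewhere, as they do for Ccnb1, so positions depend on the start used.

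Of the 38 genes, 29 had a window in the table; Ccna2, Incenp, Aurkb, Tpx2, Cdc25c, Foxm1, Depdc1b, Spc24 and Pbk had none. A CHR match was present in 22 of the 29 windows (75.9%), against 6 of 27 windows of S phase genes (22.2%) and 19.4% of the first-listed windows of all 27025 genes. CCAAT was present in 22 of 29 (75.9%), against 59.3% of the S phase windows and 37.9% of all windows. E2F letters were present in 1 of 29 (3.45%), that of Cdk1, against 25.9% of the S phase windows and 0.833% of all windows. Among the 9759 windows of genes tested for expression the shares were 13.9% for CHR, 39.0% for CCAAT and 1.62% for E2F. The CHR matches of the mitosis genes also lay close to the start: 23 of 32 began within 50 bases of it (71.9%), against 24.7% of the CHR matches in all windows. In all, 20 windows held both a CHR match and CCAAT, 17 held at least 2 CCAAT boxes, and 5 held none of the motifs, those of Birc5, Mad2l1, Nuf2, Nusap1 and Melk. The shares of all windows with both motifs, with at least 2 CCAAT boxes or with none of the motifs were not counted. In 1 pair of matches the letters overlapped. These are matches of letters in a window and no measure of binding, and no test was made on them. Only the spellings named above were searched, and other spellings of these motifs were not counted.

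**Figure D1:**
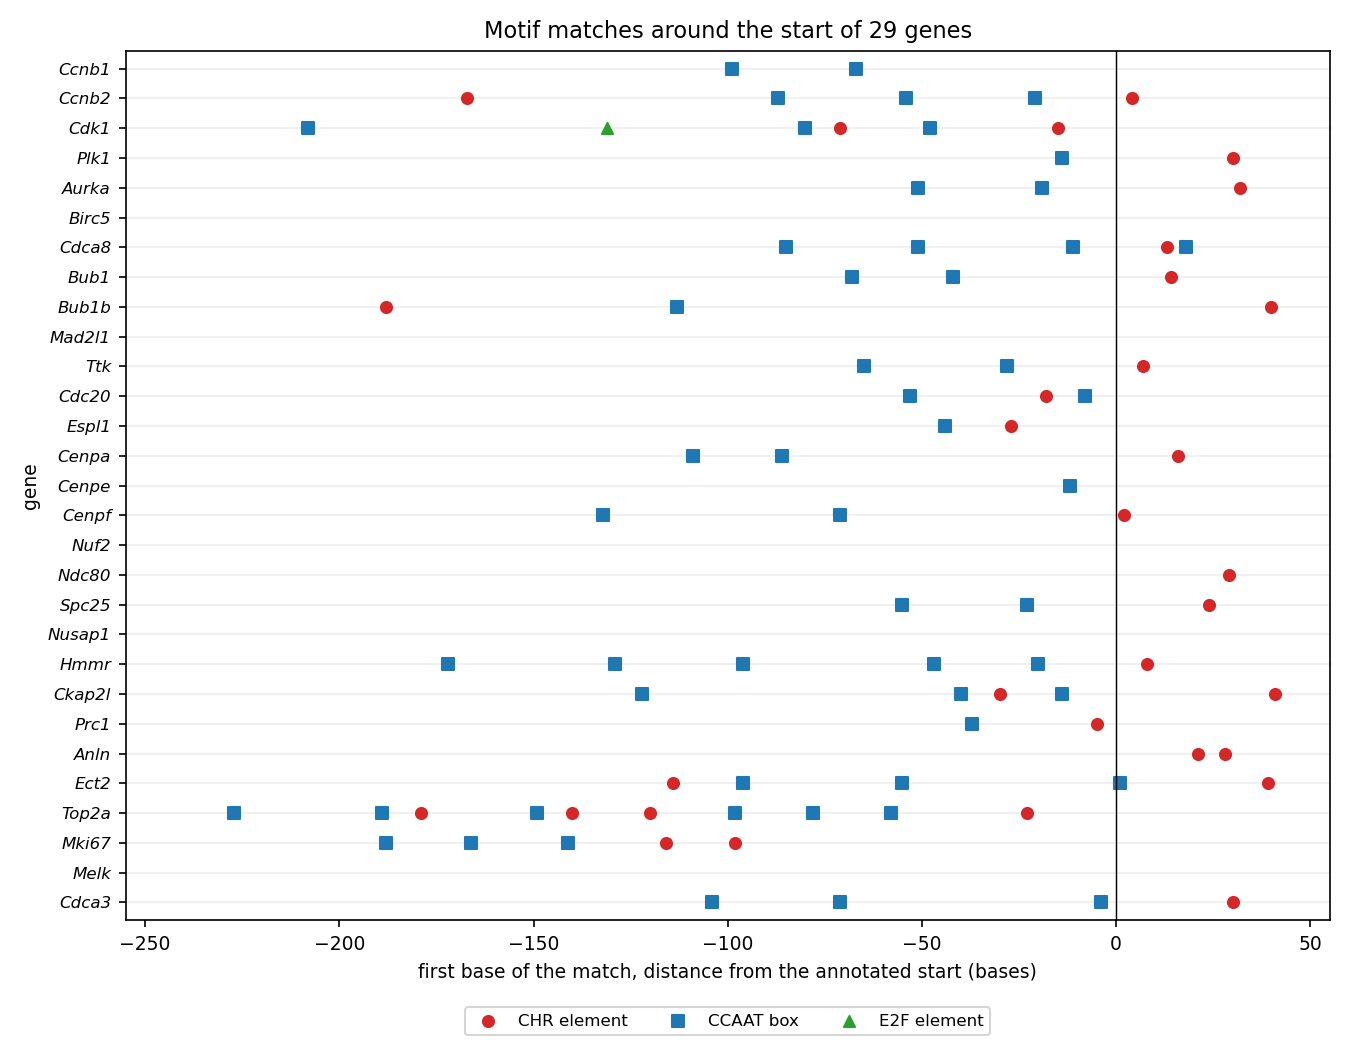
Matches of the CHR, CCAAT and E2F letters in the windows of 29 mitosis genes, on either strand; the horizontal axis gives the distance of the first base of a match from the annotated start in bases, and each row is 1 gene. CHR matches gather around the start, where 23 of 32 lie within 50 bases, and CCAAT boxes mostly upstream of it.

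The libraries held 14793404 to 20056125 counts. Levels are given as CPM, counts scaled to library sizes that TMM had adjusted, and fold changes are from the quasi-likelihood test of edgeR. Adjusted p-values are those of Benjamini and Hochberg over all 13177 genes, with a threshold of 0.05, and ± gives the approximate SE of a log2 fold change. Control replicate 1 stood apart: it was the highest control for 38 of 38 mitosis genes, at 1.26 to 3.31 times the mean of the other 5 controls (median 2.36), while it was the highest control for 40.1% of all genes tested. All 6 macrophage markers were present in every group, with summed levels of 6345 CPM in Control replicate 1, 8704 to 9671 CPM in the other controls, 5457 to 6161 CPM in IL4_IL13 and 5377 to 5552 CPM in IL4_IL13_TNFa. The 9 stromal cell markers, all detected, summed to 19.9 CPM in Control replicate 1, 104 to 621 CPM in the other controls, 56.5 to 532 CPM in IL4_IL13 and 55.7 to 340.2 CPM in IL4_IL13_TNFa. The 9 neutrophil and granule precursor markers summed to at most 2.04 CPM, with Prtn3 and Ly6g at 0 in every group, the 5 B cell markers to at most 3.20 CPM, the 6 T and NK cell markers to at most 0.947 CPM, with Cd3d and Nkg7 at 0 in every group, and the 4 mast cell and basophil markers to at most 0.264 CPM, with Fcer1a at 0.

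By the medians, the summed level of the mitosis genes was highest with IL-4 and IL-13 and lowest once TNFα was added. The 38 genes together took 1776 to 5633 CPM in Control (median 2679), 3197 to 5539 CPM in IL4_IL13 (median 4142) and 474 to 718 CPM in IL4_IL13_TNFa (median 527). In raw counts they made up 0.189% to 0.595% of a Control library, 0.327% to 0.574% of an IL4_IL13 library and 0.0426% to 0.0643% of an IL4_IL13_TNFa library. Every library with TNFα lay below every library without it, and Control replicate 1, at 5633 CPM, lay above all 6 IL4_IL13 libraries while the other 5 controls, at 1776 to 3045 CPM, lay below all of them. Number 1 was highest for 38, 37 and 31 of the 38 genes in Control, IL4_IL13 and IL4_IL13_TNFa, and number 5 was lowest for 38, 34 and 9. In IL4_IL13_TNFa number 2 was lowest most often, for 20 genes. In these bulk samples fewer dividing cells and less RNA per dividing cell cannot be told apart.

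**Figure D2:**
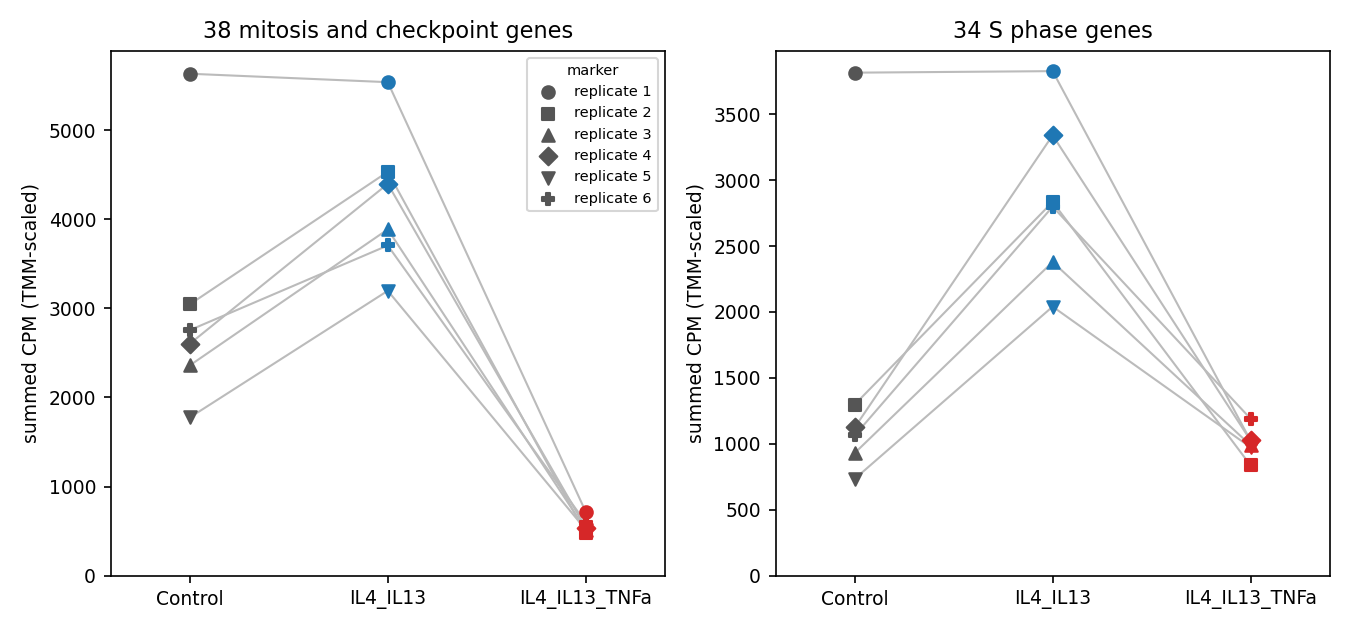
Summed CPM of the 38 mitosis genes (left) and of 34 S phase genes (right) in each library; symbols give the replicate number and grey lines join libraries with the same number. With TNFα the mitosis sum lies at 474 to 718 CPM in all 6 libraries, below every other library, and Control replicate 1 lies at 5633 CPM against at most 3045 CPM in the other controls.

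Adding TNFα to IL-4 and IL-13 lowered all 38 genes (38 of 38 called lower, where 29.3% of all genes tested were). The median log2 fold change was -3.19, against 0.00 over all 13177 genes, and the range ran from -1.37 for Incenp to -5.38 for Depdc1b. All 38 fell at least 2-fold (background 10.8%), 35 at least 4-fold, 25 at least 8-fold and 4 at least 16-fold. The shares of all genes that fell at least 4-fold, 8-fold or 16-fold were not counted, so the counts at those folds have no background. In all 38 every IL4_IL13_TNFa library lay below every IL4_IL13 library (background 21.6%). It follows that each lay below the IL4_IL13 library of its own number in 6 of 6 numbers. The level with TNFα was 2.34% to 38.8% of that with IL-4 and IL-13 alone (median 10.9%). All 38 calls held under every alternative tried. On library totals in place of TMM, 27.5% of all called genes were higher against 50.9% with TMM, the median of all genes moved to -0.20 and that of the mitosis genes to -3.40.

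The 5 genes of the cyclin and Cdk1 step, which starts mitosis, fell by a median log2 fold change of -3.41. Ccnb1 (chr13:100778650-100786570, minus strand), the main B cyclin, had lowest, median and highest levels of 16.6, 26.9 and 52.4 CPM in Control, 30.1, 33.7 and 46.6 CPM in IL4_IL13 and 2.44, 2.84 and 4.86 CPM in IL4_IL13_TNFa. All 6 libraries with TNFα lay below the lowest of the other 12 (log2 fold change against IL4_IL13 -3.50 ± 0.25, edgeR adjusted p = 8.98e-10). Ccnb2 (chr9:70407692-70421547, minus strand), the second B cyclin, had 44.8, 68.1 and 99.2 CPM in Control, 67.2, 81.7 and 98.0 CPM in IL4_IL13 and 2.85, 4.19 and 7.53 CPM in IL4_IL13_TNFa, in the same order of lowest, median and highest. With TNFα it fell 17.4-fold, the largest fall of this group, and replicate 1 was the highest of the TNFα libraries (log2 fold change -4.12 ± 0.21, edgeR adjusted p = 5.53e-12). Cdk1 (chr10:69335146-69352938, minus strand), the kinase both cyclins activate, had 33.5, 50.3 and 120.2 CPM in Control, 63.9, 90.1 and 116 CPM in IL4_IL13 and 10.7, 12.4 and 15.1 CPM in IL4_IL13_TNFa. The groups with and without TNFα did not overlap, but its fall was the smallest of the 5 (log2 fold change -2.79 ± 0.25, edgeR adjusted p = 1.75e-08). Ccna2, the cyclin of S phase and early mitosis, and Cdc25c, a phosphatase that activates Cdk1, fell, with log2 fold changes of -3.41 and -3.31.

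**Figure D3:**
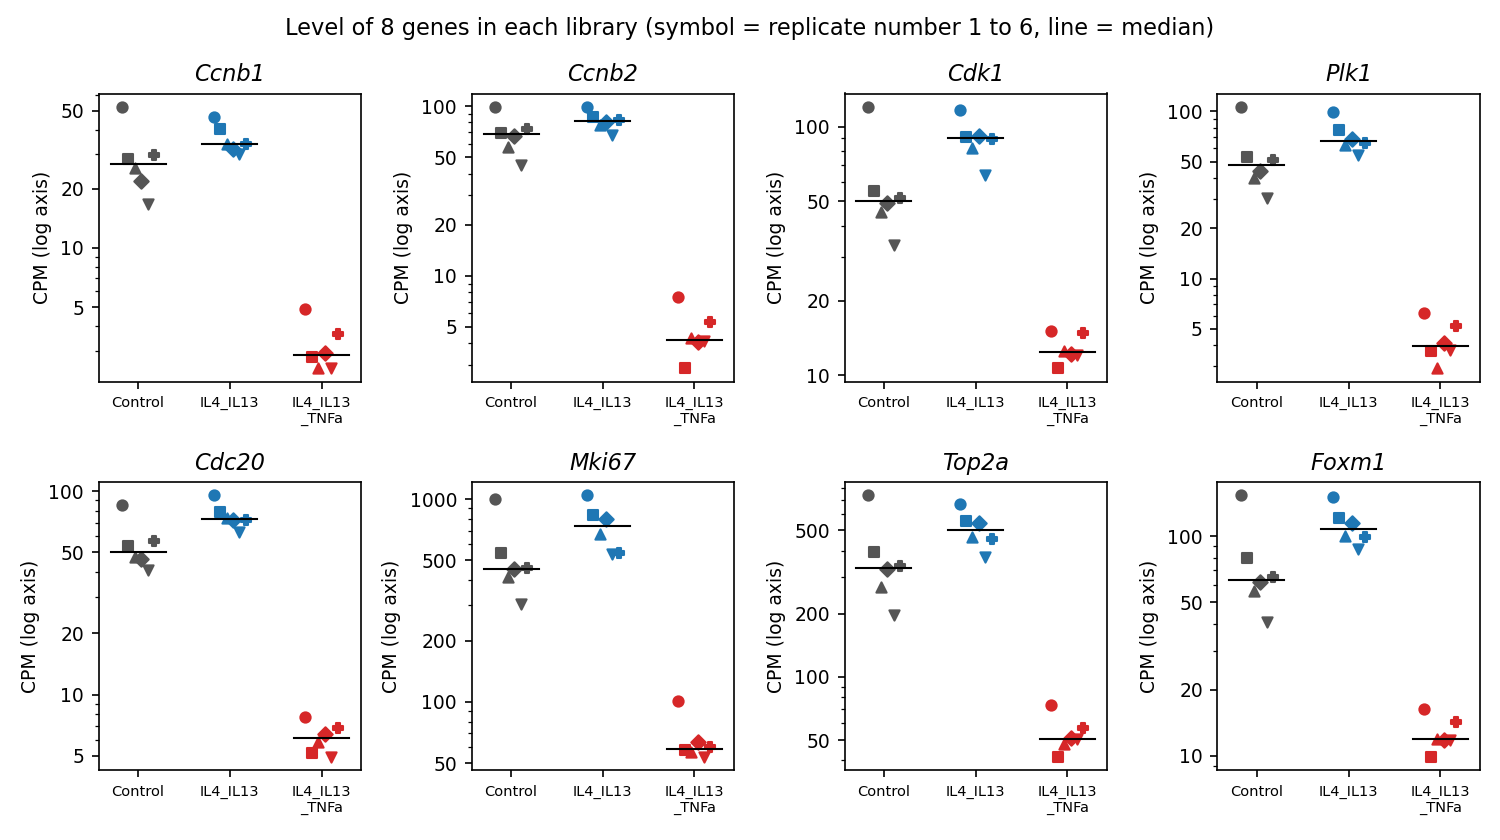
CPM (log axis) of 8 mitosis genes in each library, by group; each symbol is 1 library, its shape the replicate number, and the line is the group's median. In all 8 panels the 6 IL4_IL13_TNFa libraries lie below the other 12, and replicate 1 is the highest of the controls.

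Both mitotic kinases fell. Plk1 (chr7:122159439-122169873, plus strand), which acts from mitotic entry to cytokinesis, had lowest, median and highest levels of 30.5, 47.5 and 107 CPM in Control, 55.2, 66.7 and 99.5 CPM in IL4_IL13 and 2.90, 3.93 and 6.23 CPM in IL4_IL13_TNFa. It fell 16.5-fold with no overlap between the groups (log2 fold change -4.05 ± 0.29, edgeR adjusted p = 7.06e-10). Aurka, the Aurora kinase of the spindle poles, fell 5.35-fold. The chromosomal passenger complex, the Aurora B kinase with its 3 partners, held the smallest fall of all 38 genes. Incenp (chr19:9872296-9899551, minus strand), its scaffold, had 110.2, 146 and 277 CPM in Control, 181, 222 and 288 CPM in IL4_IL13 and 76.8, 88.8 and 94.7 CPM in IL4_IL13_TNFa. The groups did not overlap, but the TNFα libraries still stood at 38.8% of IL4_IL13 (log2 fold change -1.37 ± 0.17, edgeR adjusted p = 1.22e-06). Birc5 (chr11:117849251-117855743, plus strand), which encodes survivin, had 28.3, 46.6 and 91.1 CPM in Control, 56.4, 75.0 and 90.8 CPM in IL4_IL13 and 5.86, 7.49 and 10.6 CPM in IL4_IL13_TNFa. Its fall was the largest of this complex (log2 fold change -3.23 ± 0.23, edgeR adjusted p = 9.59e-10), beside -2.99 for Aurkb, the kinase itself, and -2.11 for Cdca8, which encodes borealin. Members of 1 complex thus ranged from -1.37 ± 0.17 to -3.23 ± 0.23, and the differences between them were not tested.

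The 6 genes of the spindle checkpoint and of anaphase fell by a median log2 fold change of -2.65, with a wide spread. Cdc20 (chr4:118432901-118437352, minus strand), the target of the checkpoint, had lowest, median and highest levels of 40.7, 50.4 and 85.4 CPM in Control, 63.2, 72.8 and 95.5 CPM in IL4_IL13 and 4.94, 6.13 and 7.80 CPM in IL4_IL13_TNFa. It fell the most of the 6 and without overlap (log2 fold change -3.62 ± 0.17, edgeR adjusted p = 2.95e-12). The kinase genes Bub1 and Ttk, which recruit and start the checkpoint at kinetochores, fell, with log2 fold changes of -3.15 and -3.10. Mad2l1 and Bub1b, whose products sit in the mitotic checkpoint complex that binds Cdc20, fell, with log2 fold changes of -1.80 and -1.49, and Espl1, which encodes separase, fell 4.61-fold. Bub1b kept 44.8, 46.5 and 49.2 CPM with TNFα against 103, 129 and 162 CPM with IL-4 and IL-13 alone (lowest, median and highest). Mad2l1, Bub1b and Incenp were the 3 of 38 genes that fell less than 4-fold.

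All 7 centromere and kinetochore genes fell, by a median of 3.05 on the log2 scale. Cenpa (chr5:30666777-30674830, plus strand), the histone H3 variant that marks centromeres, had lowest, median and highest levels of 66.5, 84.5 and 103 CPM in Control, 102, 111 and 116 CPM in IL4_IL13 and 14.3, 15.3 and 21.0 CPM in IL4_IL13_TNFa. Its libraries did not overlap between groups with and without TNFα (log2 fold change -2.75 ± 0.10, edgeR adjusted p = 8.69e-14). Cenpf (chr1:189640606-189688086, minus strand), a large outer kinetochore protein, had 70.1, 101 and 171 CPM in Control, 88.6, 112 and 152 CPM in IL4_IL13 and 3.70, 4.93 and 9.24 CPM in IL4_IL13_TNFa. It fell 20.5-fold, the most of the 7 (log2 fold change -4.36 ± 0.24, edgeR adjusted p = 2.04e-11). The 4 subunits of the microtubule-binding Ndc80 complex fell, with log2 fold changes of -3.42 (Nuf2), -3.26 (Ndc80), -3.05 (Spc25) and -2.54 (Spc24), and Cenpe, a kinetochore motor, at -2.95.

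The 4 spindle genes fell by similar amounts, from -3.70 for Nusap1 to -3.12 for Tpx2 on the log2 scale, with Hmmr and Ckap2l between them. Tpx2 (chr2:152847964-152895321, plus strand), which activates Aurora A on the spindle, had lowest, median and highest levels of 56.3, 79.2 and 184 CPM in Control, 96.9, 130.0 and 175 CPM in IL4_IL13 and 11.8, 15.0 and 18.7 CPM in IL4_IL13_TNFa. The TNFα libraries lay apart below the rest (edgeR adjusted p = 3.42e-09, standard error of the log2 fold change 0.25). Nusap1 (chr2:119618298-119651244, plus strand), which binds and bundles microtubules, had 38.8, 59.8 and 112 CPM in Control, 69.8, 97.1 and 118 CPM in IL4_IL13 and 4.41, 6.49 and 12.0 CPM in IL4_IL13_TNFa. Here replicate 1 was again the highest TNFα library, and no TNFα library reached another group (log2 fold change -3.70 ± 0.27, edgeR adjusted p = 8.76e-10). In cytokinesis, Prc1 (chr7:80294450-80316259, plus strand), which crosslinks the microtubules of the central spindle, had 67.1, 102 and 220.1 CPM in Control, 120.1, 156 and 218 CPM in IL4_IL13 and 11.3, 12.7 and 21.1 CPM in IL4_IL13_TNFa. It fell 11.7-fold without overlap (log2 fold change -3.55 ± 0.26, edgeR adjusted p = 1.07e-09), beside log2 fold changes of -3.48 for Anln, which encodes the ring protein anillin, and -2.86 for Ect2, the activator of RhoA at the cleavage furrow.

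Mki67 (chr7:135689784-135716361, minus strand), the Ki-67 proliferation antigen that coats mitotic chromosomes, had the highest level per kilobase of exon of the 38, at a mean of 44.2 CPM per kb over all 18 libraries; Cdc25c had the lowest. Its lowest, median and highest levels were 304, 455 and 1004 CPM in Control, 539, 735 and 1046 CPM in IL4_IL13 and 53.6, 58.8 and 101 CPM in IL4_IL13_TNFa. It fell 11.3-fold with TNFα, and even replicate 1, the highest TNFα library, stood at 101 CPM against at least 304 CPM in every library without TNFα (log2 fold change -3.49 ± 0.27, edgeR adjusted p = 2.25e-09). Top2a (chr11:98992943-99024189, minus strand), the topoisomerase that untangles sister chromatids, had 198, 332 and 736 CPM in Control, 375, 504 and 668 CPM in IL4_IL13 and 41.5, 50.8 and 73.9 CPM in IL4_IL13_TNFa. The groups with and without TNFα did not overlap (log2 fold change -3.25 ± 0.26, edgeR adjusted p = 3.78e-09). Foxm1 (chr6:128362967-128376146, plus strand), the transcription factor of late cell cycle genes, had 40.8, 63.5 and 154 CPM in Control, 87.3, 108 and 152 CPM in IL4_IL13 and 9.89, 11.9 and 16.4 CPM in IL4_IL13_TNFa. It fell 8.87-fold without overlap (log2 fold change -3.15 ± 0.26, edgeR adjusted p = 7.37e-09).

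Of the other mitosis-associated genes, Cdca3 (chr6:124829547-124833701, plus strand), known as a trigger of mitotic entry, had lowest, median and highest levels of 28.2, 41.9 and 86.9 CPM in Control, 57.4, 75.3 and 96.8 CPM in IL4_IL13 and 4.69, 7.75 and 9.65 CPM in IL4_IL13_TNFa. All TNFα libraries were below all others (log2 fold change -3.29 ± 0.24, edgeR adjusted p = 8.47e-10). Depdc1b (chr13:108316332-108407782, plus strand), a DEP-domain gene, had 5.29, 9.57 and 17.8 CPM in Control, 9.70, 12.4 and 16.2 CPM in IL4_IL13 and 0.0696, 0.283 and 0.684 CPM in IL4_IL13_TNFa. It was the gene with the largest fold change of the 38 (log2 fold change -5.38 ± 0.35, edgeR adjusted p = 1.68e-10) and rested on 1 to 10 counts per TNFα library, 27 in all, against 171 to 336 per IL4_IL13 library. The kinase genes Melk and Pbk fell, with log2 fold changes of -2.57 and -3.12.

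Markers of other cells moved in the same comparison. The 4 stem and progenitor markers (Kit, Cd34, Flt3 and Gata2, all detected) summed to 20.4 to 64.0 CPM in Control, 21.1 to 54.5 CPM in IL4_IL13 and 3.62 to 4.72 CPM in IL4_IL13_TNFa, and the stromal sum was lower with TNFα than in the IL4_IL13 library of the same number in 6 of 6 numbers. The 4 dendritic cell markers summed to 2.15 to 5.15 CPM in IL4_IL13 and 33.7 to 36.4 CPM in IL4_IL13_TNFa, where Xcr1 was at 0, and the 3 megakaryocyte markers to 0.396 to 0.863 CPM and 4.77 to 9.13 CPM, with Gp9 at 0 throughout. The 3 endothelial markers summed to 5.16 to 22.8 CPM in Control, 1.36 to 4.90 CPM in IL4_IL13 and 0.688 to 1.85 CPM in IL4_IL13_TNFa. Their part in the falls of the mitosis genes was not tested. In the comparison of IL4_IL13_TNFa with IL4_IL13 the summed level of the mitosis genes went from a median of 4142 to one of 527 CPM. Sums of CPM over different genes do not give amounts of cells, so the sizes of these sums do not weigh that part.

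Against Control, which asks where the 3 cytokines left the cells relative to M-CSF alone, all 38 genes were lower again (38 of 38 called, background 37.3%), 37 of them at least 2-fold (background 15.1%). The median log2 fold change was -2.66, from -0.88 for Incenp to -5.06 for Depdc1b, and the median over all genes -0.02. Levels stood at 2.92% to 54.4% of Control (median 15.9%), and each TNFα library was below the Control library of its number for all 38 genes in 6 of 6 numbers. The share of all genes in that order by number was not counted. On library totals the share of called genes that were higher was 32.7% against 49.4%, with medians of -0.27 over all genes and -2.90 over the mitosis genes. The libraries did not overlap for 37 genes (background 25.1%). Mad2l1 was the exception, with 18.6 to 25.5 CPM with TNFα and 23.4 to 90.8 CPM in Control (log2 fold change -1.01 ± 0.25, edgeR adjusted p = 0.00120). Side by side, the log2 fold changes against IL4_IL13 and against Control were -4.12 and -3.86 for Ccnb2, -4.05 and -3.65 for Plk1, -2.79 and -2.20 for Cdk1, -4.36 and -4.27 for Cenpf, and -2.54 and -1.55 for Spc24. These 2 comparisons share the 6 IL4_IL13_TNFa libraries, so they are no independent evidence for each other.

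**Figure D4:**
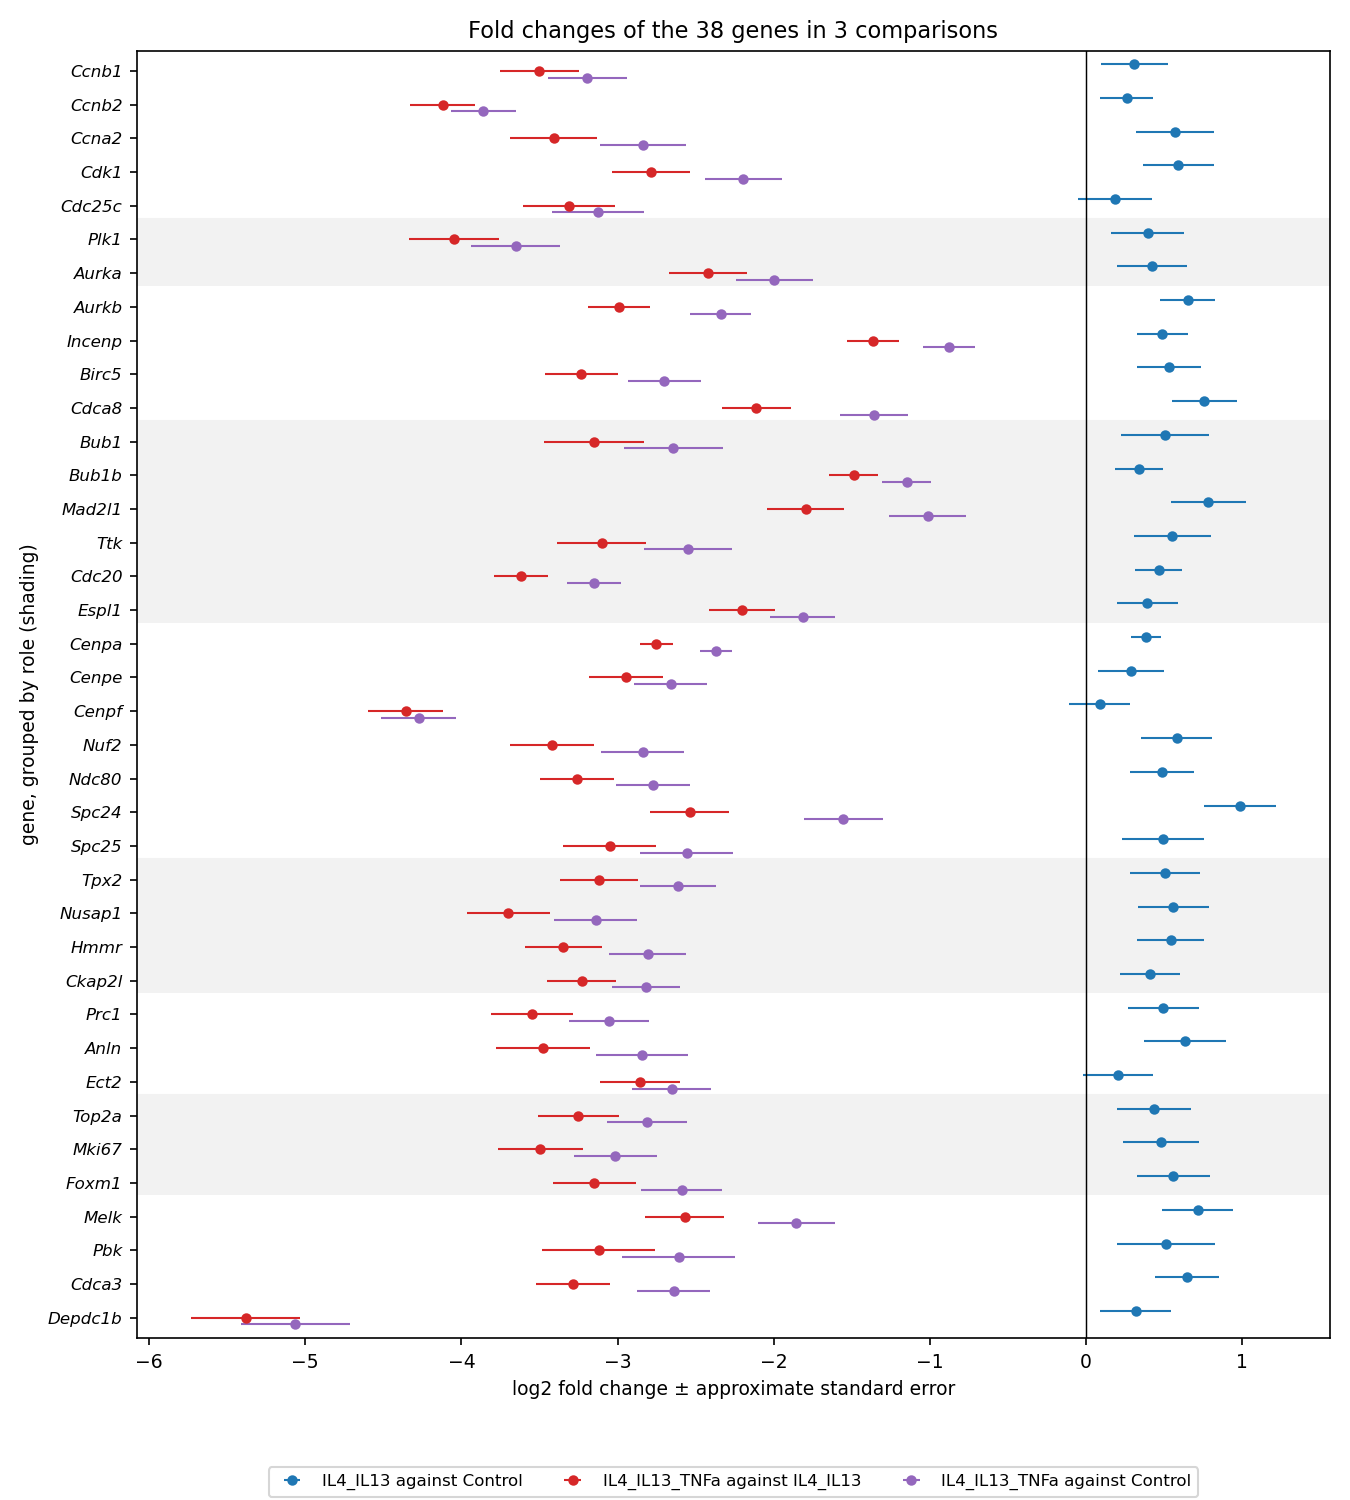
Log2 fold changes of all 38 mitosis genes in the 3 comparisons, with approximate standard errors; genes are grouped by role, and shading separates the roles. All 38 values lie below 0 in both comparisons of IL4_IL13_TNFa, with medians of -3.19 and -2.66, and above 0 for IL4_IL13 against Control, with a median of 0.49.

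IL-4 and IL-13 by themselves went with a smaller change in the other direction. Against Control, 16 of 38 genes were higher (background 29.3%), none was lower (background 29.7%) and 22 were not called. All 38 log2 fold changes were above 0, with a median of 0.49 against 0.00 over all genes, from 0.09 for Cenpf to 0.98 for Spc24, and the libraries of the groups overlapped for all 38 (background without overlap, higher with IL-4 and IL-13, 12.5%). The 16 called genes were Cdk1, all 4 of the passenger complex (Aurkb, Incenp, Birc5 and Cdca8), Mad2l1, Cdc20, Cenpa, Nuf2, Spc24, Nusap1, Hmmr, Anln, Foxm1, Melk and Cdca3. Spc24, a kinetochore subunit, rose from 6.45, 10.5 and 24.1 CPM in Control to 21.8, 23.2 and 27.7 CPM in IL4_IL13 (lowest, median and highest), and only Control replicate 1 reached into the IL4_IL13 range (log2 fold change 0.98 ± 0.23, edgeR adjusted p = 0.00132). Cenpa rose as well (log2 fold change 0.38 ± 0.10, edgeR adjusted p = 0.00230). Foxm1 had 0.56 ± 0.24 and an edgeR adjusted p of 0.0498, at the edge of the threshold, and was not called in 19 of 28 alternatives. Among genes not called were Ccnb1 (0.31 ± 0.21, edgeR adjusted p = 0.217), Ccnb2 (0.26 ± 0.17, edgeR adjusted p = 0.194), Plk1 (0.39 ± 0.24, edgeR adjusted p = 0.160), Mki67 (0.48 ± 0.24, edgeR adjusted p = 0.0977) and Top2a (0.44 ± 0.24, edgeR adjusted p = 0.122).

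This count changed with the libraries in the fit. Without Control replicate 1, 37 of 38 genes were higher (background 35.5%), all but Cenpf (log2 fold change 0.27), and the median was 0.79. In 28 genes all 6 IL4_IL13 libraries lay above controls 2 to 6 (background 27.0%). With the replicate number as a block, 35 were higher (background 33.4%) with a median of 0.57, and Cdc25c, Ect2 and Cenpf were not called. Without the 3 libraries numbered 1, 37 were higher (background 35.1%). Within numbers 2 to 6, IL4_IL13 was above Control in 5 of 5 numbers for 37 genes and in 4 of 5 for Cenpf. For number 1, Control was above all IL4_IL13 libraries for 24 genes. The share of all genes tested that showed these orders was not counted, so these counts have no background. Ccnb1 stood at 16.6 to 29.8 CPM in controls 2 to 6 and at 52.4 CPM in Control replicate 1, and without that library it was called higher with IL-4 and IL-13 (log2 fold change 0.57, edgeR adjusted p = 0.00305). Mki67 likewise stood at 304 to 545 CPM and at 1004 CPM, with a log2 fold change of 0.77 without that library (edgeR adjusted p = 0.00286). Leaving out Control replicate 2, 3, 4, 5 or 6 gave 9 higher genes each (background 26.7% to 27.3%). Without IL4_IL13 replicate 1 or 4 there were 9 (background 26.9% and 27.5%), and without its replicate 2 there were 10 (background 28.2%). Counts of 9 and 10 of 38 are smaller shares than these backgrounds. The other single libraries gave 12 to 23 (background 28.1% to 29.2%).

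**Figure D5:**
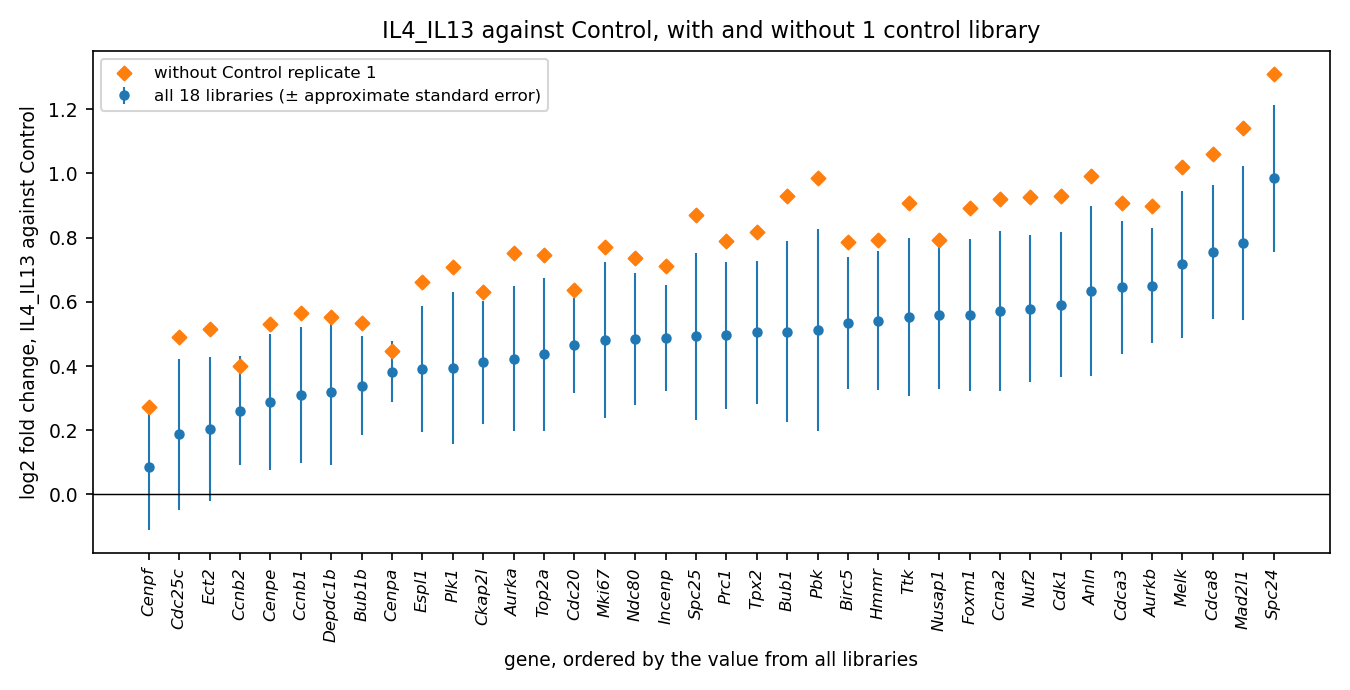
Log2 fold changes of the 38 mitosis genes for IL4_IL13 against Control from all 18 libraries (circles, with approximate standard errors) and without Control replicate 1 (diamonds). Every diamond lies above its circle; the median is 0.49 with all libraries and 0.79 without that one.

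Other genes of mitosis were read in lists by function. Of 36 further checkpoint, kinetochore and centromere genes, 34 were lower with TNFα added to IL-4 and IL-13 and 2 were higher (median log2 fold change -1.94). Over all genes tested 29.3% were lower and 30.3% higher, which is the background for every list of this paragraph. Knl1, the kinetochore scaffold for checkpoint proteins, fell, with a log2 fold change of -3.55 and Ska1, a microtubule-binding subunit, at -3.26, while Bub3, a checkpoint protein that also takes part in splicing, fell, with a log2 fold change of -0.31. The 2 that were higher, named after their values were seen, were Trip13, the ATPase that takes the checkpoint complex apart (0.67 ± 0.23, edgeR adjusted p = 0.0196), and Zwint, a kinetochore protein (0.30 ± 0.09, edgeR adjusted p = 0.0112). On library totals alone neither was called (Trip13 0.46, Zwint 0.09), and Trip13 was not called with no filter on low counts. Against Control (36.4% of all genes higher) Trip13 stood at 1.49 ± 0.24 (edgeR adjusted p = 1.90e-05). All 8 condensin genes fell (median -2.22; Ncapg at -3.18, Ncapd2 at -2.88), as did all 6 further cytokinesis genes (median -3.15; the kinesin gene Kif23 at -4.09, Racgap1 at -3.44). Of 11 cohesin genes 8 fell (median -0.46; Esco2, the S phase acetyltransferase of cohesin, at -3.29, Rad21, the subunit separase cuts, at -1.40).

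Lists of the machinery that acts on mitotic proteins held more lower than higher genes with TNFα added. All but the list of regulators and substrates held called genes in both directions. Over all genes 29.3% were lower and 30.3% higher. Of 14 subunits of the anaphase-promoting complex, 8 were lower and 2 higher with TNFα added (median log2 fold change -0.16), and Anapc15 had the largest change at -0.94 ± 0.08. The count of higher subunits ran from 0 to 3 over the alternatives and that of lower ones from 5 to 10. Of 8 regulators and substrates of that ligase 7 were lower. Ube2c, its ubiquitin-conjugating enzyme, fell, with a log2 fold change of -3.67 and Ccnf at -2.98, whereas Pttg1, which encodes securin, had 0.27 ± 0.12 and was not called (edgeR adjusted p = 0.0650). Pttg1 was called higher in 6 of 28 alternatives (lowest edgeR adjusted p = 0.00228), the omission of all libraries numbered 1 among them. Pttg1 was also the regulator that fell with IL-4 and IL-13 (-0.76 ± 0.12, edgeR adjusted p = 2.80e-05). Of 15 genes that control mitotic entry 10 were lower and 3 higher (median -1.12): Cdc25b, a phosphatase that starts Cdk1 activation, fell, with a log2 fold change of -3.77 and Mastl, the Greatwall kinase, at -3.44, while Wee1, which inhibits Cdk1, fell, with a log2 fold change of -1.15. Of 15 genes of MuvB, B-Myb, the pocket proteins and NF-Y 8 were lower and 2 higher (median -0.42); on library totals 13 were lower, and in 7 alternatives 1 was higher. Mybl2, which encodes B-Myb, fell (log2 fold change -2.19 ± 0.45, edgeR adjusted p = 3.40e-04) and Tfdp2, a partner of E2F proteins, had a log2 fold change of -1.44.

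CDK inhibitor genes did not share a direction. Of 7, 4 were lower with TNFα added (background 29.3%) and 1 was higher (background 30.3%). Cdkn2b, which encodes the CDK4 and CDK6 inhibitor p15, rose 13.5-fold (log2 fold change 3.75 ± 0.18, edgeR adjusted p = 1.76e-12), with lowest, median and highest levels of 1.12, 1.68 and 2.16 CPM in Control, 1.75, 2.36 and 3.88 CPM in IL4_IL13 and 29.6, 35.3 and 42.9 CPM in IL4_IL13_TNFa. Cdkn2c, which encodes the related p18, fell, with a log2 fold change of -2.99. Cdkn1a, which encodes p21, had -0.00 ± 0.16 (edgeR adjusted p = 0.984). With IL-4 and IL-13 alone, against Control, Cdkn1c and Cdkn1b, which encode p57 and p27, had -1.36 ± 0.24 (edgeR adjusted p = 8.13e-05) and -0.75 ± 0.11 (edgeR adjusted p = 1.71e-05).

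In that comparison of IL-4 and IL-13 with Control, where 29.3% of all genes were higher and 29.7% lower, the lists differed. Of the 36 further kinetochore and checkpoint genes 23 were higher and none lower (median 0.48), with Nsl1, a subunit of the Mis12 complex, at 1.06 ± 0.17. Of the 8 condensin genes 7 were higher and Ncapg2, a condensin II subunit, was lower (-0.88 ± 0.13, edgeR adjusted p = 1.36e-05). These counts of higher genes moved with the settings, over 15 to 35 for the first list and 2 to 7 for condensin. Of the 14 subunits of the anaphase-promoting complex 3 were higher and 2 lower, of the 8 regulators and substrates 3 and 1, of the 11 cohesin genes 3 and 2, and of the 7 CDK inhibitors 2 and 2. Of the 15 entry genes 7 were higher and 1 lower, of the 15 genes of the MuvB and B-Myb list 8 and 0, and of the 6 further cytokinesis genes 2 and 0. These counts moved too. Higher genes ran over 2 to 7 for the subunits, 0 to 6 for the regulators, 3 to 7 for cohesin and 1 to 4 for CDK inhibitors. They ran over 5 to 13 for entry, 4 to 10 for the MuvB and B-Myb list and 1 to 5 for cytokinesis. Lower genes ran over 0 to 3 for cohesin and for the MuvB and B-Myb list. Pkmyt1, the membrane-bound inhibitory kinase of Cdk1, rose by 1.08 ± 0.20 and Mybl2 by 1.18 ± 0.42, the latter 2.00 without Control replicate 1 and not called in 5 of 28 alternatives (highest edgeR adjusted p = 0.0810). Wee1 (0.58 ± 0.26, edgeR adjusted p = 0.0605) and Ube2c (0.40 ± 0.22, edgeR adjusted p = 0.125) were not called. Without Control replicate 1 both were, with log2 fold changes of 1.00 for Wee1 and 0.62 for Ube2c, and with the replicate number as a block both were as well, at 0.67 and 0.46; in all, Wee1 was called in 7 and Ube2c in 5 of 28 alternatives.

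The 34 S phase genes were read for the step before mitosis. With IL-4 and IL-13, 31 of 34 were higher than Control (background 29.3%; median log2 fold change 0.91; Pcna, the replication clamp, 1.41 ± 0.26), a count that ran from 14 to 34 over the alternatives and was 34 without Control replicate 1 (background 35.5%). All 34 fell when TNFα was added (background 29.3%; median -1.50; Tk1, thymidine kinase, at -3.02 and Rrm2, a ribonucleotide reductase subunit, at -2.60). Against Control the 3 cytokines left 15 lower, 19 not called and none higher (median -0.61), where 37.3% of all genes tested were lower and 36.4% higher. Without Control replicate 1 the counts were 10 lower and 6 higher of 34, against 38.7% lower and 39.0% higher over all genes. The sums were 734 to 3815 CPM in Control, 2041 to 3827 CPM in IL4_IL13 and 836 to 1190.4 CPM in IL4_IL13_TNFa. The ratio of the summed mitosis level to the summed S phase level was 2.32 to 2.59 in controls 2 to 6, 1.48 in Control replicate 1, 1.32 to 1.63 in IL4_IL13 and 0.499 to 0.701 in IL4_IL13_TNFa. The ratio in Control replicate 1 lay within the IL4_IL13 range, and those with TNFα lay below all others. CPM is not divided by gene length here, so the ratio is comparable between libraries and is not a ratio of molecules.

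Among the 29 genes with a promoter window, the fall with added TNFα had close medians with and without CHR and with and without CCAAT; E2F letters, in 1 window, were not compared. The median log2 fold change was -3.24 in the 22 genes with a CHR match (from -4.36 to -1.49) and -3.23 in the 7 without (from -3.70 to -1.80). It was -3.19 in the 22 with CCAAT and -3.26 in the 7 without. Ccnb1, whose window held neither TTTGAA nor TTCGAA, and Ccnb2, with 2 CHR matches, fell, with log2 fold changes of -3.50 and -4.12. No other spelling of CHR was searched, so a window counted as without CHR may hold another spelling. These are descriptions of the windows printed and counted above, with no test.

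Several genes overlap others on the genome, and the strand setting of the counting is not given in the sources used here, although the libraries were made with a directional kit. Ccna2 overlaps Exosc9, Cdc20 overlaps Elovl1, Nusap1 overlaps Oip5, Prc1 overlaps Rccd1 and Cdca8 overlaps 9930104L06Rik on the opposite strand, and Foxm1 shares its strand with Tex52 and Gm44596. How reads in these stretches were assigned is uncertain, and so are the levels of these genes.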

How the data were processed

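The authors deposited a table of raw counts per gene for 18 poly(A) libraries made with a directional kit. Per the submitters' processing notes the tools were bcl2fastq 2.20.0.422, FastQC 0.11.5, STAR 2.5.2 and 2.5.2b, featureCounts 1.5.1 and RSEM 1.3.0, with build mm10 (GRCm38); the sources used here do not give their settings or the annotation release. Groups were taken from the labels.

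Counts were tested with edgeR 4.0.16 in R 4.3.3 (robust quasi-likelihood fit, TMM, filterByExpr with a minimum count of 10) over all 18 libraries, with Benjamini-Hochberg adjustment over 13177 genes and a threshold of 0.05. limma 3.58.1 (voom) and DESeq2 1.42.0 were alternatives. The fit was also run on simulated counts with known changes. That simulation had no library apart and no effect of the replicate number, so it does not bear on those features of the data. Library totals were 15744544 to 19309743 in Control, 14793404 to 20056125 in IL4_IL13 and 15645117 to 17808553 in IL4_IL13_TNFa. Between libraries of a group chi-square over degrees of freedom was at least 2.59, so none was counted as a copy of another. Symbols matched 48434 of 48794 rows; coordinates are GRCm38 and promoter windows RefSeq on GRCm38.p6.

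Same-numbered libraries deviated together from their group means (correlations of 0.128 to 0.671 in 18 pairs, against -0.497 to 0.306 for different numbers). These ranges overlap. The numbers were taken to pair the libraries only in the replicate block and in the comparisons by number. This pairing comes from the data, as the labels do not say what a number marks. Calls, standard errors and p-values are from the fit on group alone, without the number, unless another setting is named.

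The genes and lists were chosen with earlier results of these data known. Genes named in full are, per role, the one with the highest level per kilobase and the one with the largest change with added TNFα, plus 8 core genes (Ccnb1, Ccnb2, Cdk1, Plk1, Cdc20, Mki67, Top2a and Foxm1); from the other lists, up to 2 called genes with the largest change per comparison, plus Cdkn1a, Wee1, Mybl2, Bub3, Ube2c and Pttg1.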

Additional observations from a re-analysis of the deposited data

Results flagged for a closer look

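In 40 of the 114 sets of 6 libraries (38 genes in 3 groups), 1 library lay apart from the other 5 by Dixon's 95% criterion, where chance gives about 1 in 20 for independent sets. The 38 genes were read in the same libraries, so the sets are not independent and their count is no test. Control replicate 1 was that library in 33 of them. Each level below is followed by that of the next highest library. Control replicate 1 reached 52.4 CPM for Ccnb1 (next 29.8 CPM), 243 CPM for Ccna2 (next 112 CPM), 120.2 CPM for Cdk1 (next 54.9 CPM), 18.9 CPM for Cdc25c (next 9.51 CPM), 107 CPM for Plk1 (next 53.3 CPM), 61.1 CPM for Aurka (next 29.8 CPM) and 103 CPM for Aurkb (next 58.2 CPM). The same library stood at 277 CPM for Incenp (next 159 CPM), 91.1 CPM for Birc5 (next 49.7 CPM), 97.9 CPM for Cdca8 (next 48.7 CPM), 106 CPM for Bub1 (next 43.3 CPM), 168 CPM for Bub1b (next 103 CPM), 90.8 CPM for Mad2l1 (next 45.1 CPM) and 40.7 CPM for Ttk (next 20.4 CPM). In the same order, its levels were 85.4 CPM for Cdc20 (next 56.8 CPM), 119 CPM for Espl1 (next 65.8 CPM), 165 CPM for Cenpe (next 96.6 CPM), 76.4 CPM for Nuf2 (next 35.7 CPM), 67.9 CPM for Ndc80 (next 37.3 CPM), 24.1 CPM for Spc24 (next 12.0 CPM) and 60.7 CPM for Spc25 (next 26.7 CPM). It was also high at 184 CPM for Tpx2 (next 91.4 CPM), 89.2 CPM for Hmmr (next 49.9 CPM), 83.2 CPM for Ckap2l (next 49.3 CPM), 220.1 CPM for Prc1 (next 111 CPM), 202 CPM for Anln (next 96.2 CPM), 93.1 CPM for Ect2 (next 46.3 CPM) and 736 CPM for Top2a (next 395 CPM). Further levels in that library were 1004 CPM for Mki67 (next 545 CPM), 154 CPM for Foxm1 (next 79.4 CPM), 48.2 CPM for Melk (next 24.3 CPM), 53.7 CPM for Pbk (next 22.1 CPM) and 86.9 CPM for Cdca3 (next 48.4 CPM). Summed over the 34 S phase genes, Control replicate 1 stood at 3815 CPM (next 1298 CPM). Summed over the 38 mitosis genes, Control replicate 1 stood at 5633 CPM (next 3045 CPM). 

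Replicate 1 of the other groups also lay apart for a few genes. In IL4_IL13 it was 56.5 CPM for Aurka (next 40.1 CPM). In IL4_IL13_TNFa it was 10.1 CPM for Aurka (next 7.88 CPM), 6.78 CPM for Nuf2 (next 5.15 CPM), 11.0 CPM for Hmmr (next 6.75 CPM), 21.1 CPM for Prc1 (next 13.8 CPM), 20.0 CPM for Anln (next 13.9 CPM) and 101 CPM for Mki67 (next 63.8 CPM). The macrophage marker sum was 6345 CPM in Control replicate 1 and at least 8704 CPM in the other controls, and its stromal marker sum 19.9 CPM against at least 104 CPM. The part of these differences in the levels of the mitosis genes was not tested.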

How the results depend on the processing

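All 38 falls with TNFα, against IL4_IL13 and against Control, kept direction and call in 1064 of 1064 values per comparison. For IL4_IL13 against Control the main count was 16 higher genes (background 29.3%). It became 8 with no filter on low counts (background 12.4%) and 30 with limma voom (background 31.0%). It was 35 with the replicate block (background 33.4%) and 37 without the 3 libraries numbered 1 (background 35.1%). With both the block and those libraries left out it was 37 (background 36.8%), a setting chosen after seeing the data. Leaving out 1 library at a time gave 9 to 37 (background 26.7% to 35.5%). The block changed no other count of the 38 genes. Cenpf in that comparison, at 0.09, ran up to 0.27 without Control replicate 1 and turned to -0.0107 without Control replicate 5 and -0.0127 without IL4_IL13 replicate 1; the cause was not tested. Cdkn1a with TNFα added to IL-4 and IL-13, not called at -0.00, turned to 0.0050 with no filter and to 0.0130 to 0.0726 without IL4_IL13 replicate 1 or 2 or without IL4_IL13_TNFa replicate 3, 4, 5 or 6; leaving out 1 library at a time spanned -0.0905 to 0.0726. On log2(CPM + 1) the lowest correlation of same-numbered libraries was 0.0924. Counting CCAAT on the gene's own strand gave 16 of 29 windows in place of 22. Depdc1b, with 1 to 10 counts per TNFα library, is limited by depth.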
